A study of Mus musculus with 2 samples.

Results

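The 34 genes described here make cholesterol or handle it, and were taken by gene symbol from the 25865 named features counted in each library. All 34 were found. They comprise 20 synthesis enzymes, 8 genes of sterol sensing and SREBP2 activation, and 6 genes of cholesterol transport, efflux and storage, and the last 14 are called handling genes below. Single-cell RNA sequencing compared mammary glands of adult mice at 18.5 days of pregnancy in 2 genotypes. The strain EhfKO, by its label a knockout of the epithelial ETS-family transcription factor Ehf, gave 1 library, and the strain WT gave 1. Each library pooled the glands of 2 females, and live cells without the surface markers Ter119 (red blood cells), CD31 (endothelium) and CD45 (white blood cells) were sorted. The deleted part of Ehf and the cells that carry the deletion were not stated in the sources used here.

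The libraries held 7275 knockout and 11258 wild-type barcodes, with 40066795 and 48720938 unique molecular identifiers (UMIs, each standing for 1 captured transcript), and 6612 and 9207 cells were kept. The libraries shared 25 barcodes, of which 15 were among the kept cells. Clusters were named from marker genes and joined into luminal secretory-like cells (862 knockout, 2639 wild type), basal-like cells (5541 and 6265) and hormone-sensing-like cells (146 and 124), called luminal, basal and hormone-sensing cells below. Since the names rest on these markers, their levels describe the classes and do not check the names. Summed basal markers stood at 30991 and 41167 counts per 1000000 UMIs outside milk protein genes (CPM) in basal cells and at 848 and 697 in luminal cells, and hormone-sensing markers at 3261 and 2396 in hormone-sensing and at 78.4 and 58.1 in luminal cells. Immune markers stood at 3.25 and 2.16 in luminal, 5.50 and 4.14 in basal, and 70.1 and 63.2 in hormone-sensing cells. In hormone-sensing cells 4 and 6 of the 7 immune markers had no UMIs, so few genes carried that sum. Most knockout luminal cells lay in cluster 6 (472 cells), led by luminal progenitor markers, and most wild-type luminal cells in cluster 4 (1897 cells), led by milk protein genes. Most knockout basal cells lay in clusters 2 and 3 and most wild-type basal cells in clusters 0 and 1. Milk protein genes took 10.5% of knockout and 39.3% of wild-type luminal UMIs. UMIs of Ehf itself numbered 1091 (93.3 CPM) in knockout and 3366 (191 CPM) in wild-type luminal cells, and whether the counted 3' end lies in the deleted part is not known here.

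Levels are given as CPM, which leaves the 12 milk protein genes out of the total. Log2 ratios compare knockout with wild type and are scaled so that the median gene with at least 50 UMIs over both libraries stands at 0. In luminal cells that median gene stood at 0.31 on the CPM scale outside milk and at 0.87 on plain CPM of all UMIs, and the 3 scales gave nearly the same values in basal and hormone-sensing cells. A member is called higher or lower at a difference of at least 1.5-fold, which is a rule of size. With 1 library per genotype there was no test, and no spread between animals is known. The 95% intervals in parentheses cover counting error only.

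Cells build cholesterol from acetyl-CoA through mevalonate, isoprenoid diphosphates, squalene and lanosterol, and the isoprenoids also feed ubiquinone, dolichol and protein prenylation. When sterols are scarce in the endoplasmic reticulum, SCAP escorts SREBP2 to the Golgi, where site-1 and site-2 proteases release the part that activates the synthesis genes, while INSIG proteins hold SCAP back when sterols are plentiful. Excess sterol activates the LXR receptors, which raise export through ABC transporters. Milk fat globules are wrapped in membrane that contains cholesterol, so the secretory mammary cell uses the sterol for export as well as for its own membranes.

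Promoter sequence was matched by symbol for 28 of the 34 members, giving 35 promoters in RefSeq on GRCm38.p6. In the 250 bases before each start, the letters CCAAT, bound by NF-Y, stood on either strand in 16 of 20 synthesis promoters (16 of 17 genes) and 5 of 15 handling promoters (5 of 11 genes), against 33.8% of the 32851 promoters in the table. The sterol regulatory element letters TCACNCCAC stood only in the promoter of Hmgcs1, 137 bases before its start, against 1.05% of all promoters. The Sp1 letters GGGCGG stood in 16 of 20 synthesis and 8 of 15 handling promoters (32.7% of all promoters), and the E-box letters CANNTG in 13 of 20 and 12 of 15 (66.2%). Motifs were searched on both strands, and E-box letters can overlap other motifs. The matches are a description of letters, not of sites in use. The windows printed here, on the gene's strand and ending before the first annotated exon, belong to the first enzyme of the list, a mid-pathway enzyme, the feedback gene with the largest difference between the libraries, and the efflux gene that differed in the other direction. Capitals mark TCACNCCAC, CCAAT or its reverse complement ATTGG.
Hmgcs1, chr13:119690101-119690350, plus strand: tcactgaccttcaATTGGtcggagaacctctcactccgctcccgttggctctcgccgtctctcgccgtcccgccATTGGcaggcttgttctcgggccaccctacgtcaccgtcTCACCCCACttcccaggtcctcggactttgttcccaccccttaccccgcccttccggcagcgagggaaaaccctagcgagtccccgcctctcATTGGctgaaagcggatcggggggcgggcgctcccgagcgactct
Mvd, chr8:122443423-122443672, minus strand: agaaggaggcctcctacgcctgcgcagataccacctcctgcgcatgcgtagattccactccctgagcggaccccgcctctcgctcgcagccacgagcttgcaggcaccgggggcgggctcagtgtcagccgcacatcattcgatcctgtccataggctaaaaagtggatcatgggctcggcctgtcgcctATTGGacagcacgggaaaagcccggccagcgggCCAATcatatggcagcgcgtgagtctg
Insig1, chr5:28071162-28071362, plus strand: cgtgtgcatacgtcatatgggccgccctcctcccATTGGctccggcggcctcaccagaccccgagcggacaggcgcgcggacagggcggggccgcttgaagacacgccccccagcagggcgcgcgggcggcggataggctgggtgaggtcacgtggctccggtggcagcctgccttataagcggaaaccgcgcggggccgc
Abca1, chr4:53159896-53160145, minus strand: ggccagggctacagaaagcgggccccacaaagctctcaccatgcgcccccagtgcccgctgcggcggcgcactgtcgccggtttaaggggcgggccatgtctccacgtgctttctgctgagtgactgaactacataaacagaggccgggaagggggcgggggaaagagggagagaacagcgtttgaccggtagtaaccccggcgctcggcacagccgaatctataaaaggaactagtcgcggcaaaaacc
Hmgcs1 held 3 CCAAT matches in its window, Mvd 2, Insig1 1 and Abca1 0.

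Many members differed between classes in the same direction in both libraries. Agreement was also common among genes at large, with the same class highest in both libraries for 69.5% of those with at least 50 UMIs. Luminal over basal, the median synthesis enzyme stood at 0.72 in the knockout library, with 12 of 20 higher and 2 lower where 25.5% and 30% of all genes were. It stood at 1.37 in wild type, with 13 of 20 higher and 1 lower where 30.3% and 31.8% of all genes were. On plain CPM the wild-type median was 0.48, with 10 higher and 5 lower (12.3% and 60.7% of all genes). In both libraries 11 of the 20 enzymes were higher in luminal than in basal cells, and 1, Hmgcs1, was lower. The share of all genes called the same way in both libraries is not given here, so this count has no background beside it.

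The enzymes with the largest luminal excess over basal cells came from several stages of the pathway. Mvd, which decarboxylates mevalonate diphosphate, had 196 UMIs in luminal and 91 in basal knockout cells, a log2 ratio of 2.05 (1.68 to 2.42), and 561 and 55 in wild type, 3.26 (2.86 to 3.69). Fdps, which makes farnesyl diphosphate, had 844 luminal and 377 basal knockout UMIs (2.10, 1.93 to 2.28) and 1926 and 436 in wild type (2.05, 1.90 to 2.21). Ebp, the sterol isomerase, stood at 1.69 (1.53 to 1.86) and 2.04 (1.86 to 2.23). Dhcr7, which reduces 7-dehydrocholesterol to cholesterol, stood at 1.97 in the knockout (151 and 74 UMIs) and 1.89 in wild type (261 and 66). All 4 intervals lay above the 1.5-fold line in both libraries. Hmgcs1, the cytosolic HMG-CoA synthase, went the other way at -1.07 in each library, with 301 luminal and 1215 basal knockout UMIs and 574 and 1133 in wild type (intervals -1.26 to -0.89 and -1.22 to -0.93).

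The widest gaps between classes were in transport and storage genes. Soat1, the enzyme that esterifies cholesterol for storage, had only 10 knockout and 12 wild-type UMIs in luminal cells against 581 and 297 in basal cells, ratios of -4.92 (-5.99 to -4.03) and -4.72 (-5.69 to -3.89). Abcg1, which exports sterol to lipoproteins, stood at 80.0 and 88.9 CPM in hormone-sensing cells and at 2.77 and 2.56 in basal cells, log2 ratios of 4.86 (4.38 to 5.34) and 5.07 (4.43 to 5.72). Its luminal counts were 8 and 5 UMIs. Abcg1 therefore separated hormone-sensing cells from both other classes in each library. Abca1, the exporter of cholesterol to apolipoproteins, was lower in luminal than in basal cells at -1.67 (-1.97 to -1.39) and -2.64 (-3.02 to -2.27), and higher in hormone-sensing than in basal cells at 1.18 (0.81 to 1.52) and 0.95 (0.39 to 1.46). Npc1, the membrane protein of lysosomal cholesterol export, was lower in luminal than in basal cells at -0.85 (-1.08 to -0.63) and -1.06 (-1.29 to -0.83). Its soluble partner Npc2 was higher there, at 1.12 (1.01 to 1.23) and 2.48 (2.36 to 2.59). The same class was highest in both libraries for 6 of 6 transport genes, 12 of 20 synthesis enzymes (60%) and 3 of 8 sensing genes (37.5%), against 69.5% of the 13414 genes with at least 50 UMIs over the classes and libraries. Knockout Soat1 was nearly tied, at 25.2 CPM in hormone-sensing and 24.4 in basal cells.

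Hormone-sensing cells were high in synthesis enzymes too. Over basal cells, the median enzyme stood at 1.03 in the knockout (13 of 19 measured higher, 2 lower; 27.5% and 29.2% of all genes) and at 1.42 in wild type (14 of 19 higher, 1 lower; 27.2% and 29.2%). In both libraries 12 enzymes were higher than in basal cells, from Acat2, Pmvk and Mvd to Sc5d and Dhcr7. The share of all genes higher in both libraries is not given here. Lbr, a nuclear lamina receptor that is also a sterol reductase, was lower at -1.25 in each. Luminal over hormone-sensing cells, the median enzyme was near 0 at -0.32 and -0.04, with 4 of 19 higher and 7 lower in the knockout (26.4% and 25.9% of all genes) and 3 of 20 higher and 7 lower in wild type (27.2% and 27.6%). On plain CPM, 1 was higher and 15 lower in wild type (10.4% and 61.3%). Free RNA was estimated by taking all milk protein UMIs of basal cells, Mfge8 left out, as free RNA with the profile of the whole library. On that assumption, which was not tested, it made up 1.22% of knockout and 1.36% of wild-type luminal UMIs. In basal cells it made up 4.30% and 6.38%.

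**Figure D1:**
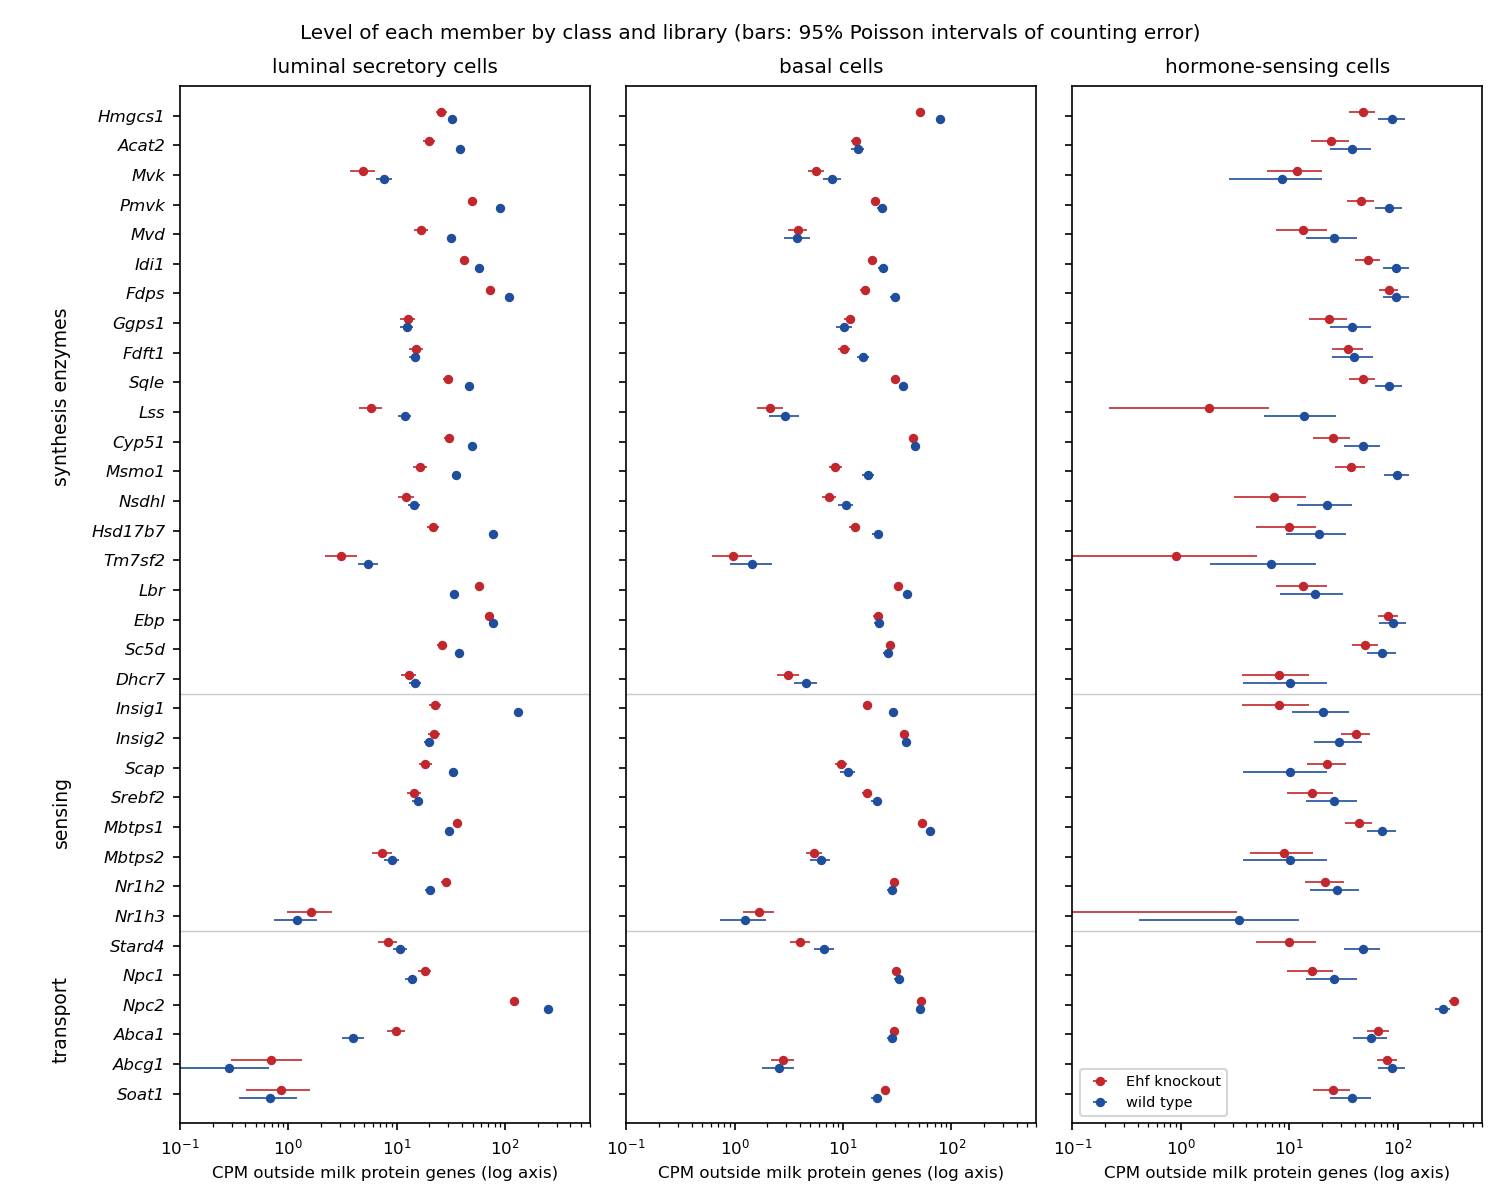
Level of each of the 34 members (CPM outside milk protein genes, log axis) in luminal secretory, basal and hormone-sensing cells of the knockout (red) and wild-type (blue) library, with 95% Poisson intervals of counting error. Abcg1 sits at 80.0 and 88.9 CPM in hormone-sensing cells and at 2.77 and 2.56 in basal cells, and Soat1 is under 1 CPM in luminal cells of both libraries.

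In luminal cells the knockout library held less of most synthesis enzymes. All 20 passed the minimum of 50 UMIs, 14 were lower and none was higher, where 18% of the 11145 genes measured were lower and 15.2% higher. Their median log2 ratio was -0.92, and their summed level was 546 CPM in the knockout and 797 in wild type. On plain CPM the median was -0.06, with 1 lower and 3 higher, where 4.44% of all genes were lower and 68.1% higher. Outside milk it was -0.62, with 11 lower and 1 higher (10.5% and 30.6% of all genes), so the calls depended on the scaling. Of the 31 members measured in luminal cells, 13 changed sign on plain CPM, 5 of them called lower. The early steps from acetyl-CoA to the isoprenoids are described first.

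Acat2, the cytosolic thiolase that joins acetyl-CoA units, had 234 knockout and 675 wild-type UMIs, or 20.01 and 38.3 CPM, a log2 ratio of -1.24 (-1.47 to -1.03). Hmgcs1 had 301 and 574 UMIs, or 25.7 and 32.6 CPM, at -0.65 (-0.85 to -0.44), and stood at 0.22 on plain CPM. Both were lower by the 1.5-fold rule, but only Acat2 kept its sign on plain CPM. The kinases Mvk (57 and 135 UMIs) and Pmvk (577 and 1566) stood at -0.96 and -1.16, and Mvd at -1.23. Idi1, the isopentenyl diphosphate isomerase, stood at -0.76, and Fdps, with 844 and 1926 UMIs (72.2 and 109 CPM), at -0.91 (-1.02 to -0.79). The branch enzymes Ggps1, which makes geranylgeranyl diphosphate, and Fdft1, which commits farnesyl diphosphate to squalene, stayed within 1.5-fold at -0.27 and -0.26.

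The sterol part of the pathway included the enzymes with the largest differences. Hsd17b7, a ketosteroid reductase of C-4 demethylation, had 253 knockout and 1374 wild-type UMIs, or 21.6 and 78.0 CPM, a ratio of -2.16 (-2.36 to -1.96) and of -1.29 on plain CPM. It was the 1 enzyme called lower on plain CPM. Msmo1, the oxidase of the same demethylation, had 191 and 626 UMIs (16.3 and 35.5 CPM; -1.43, -1.67 to -1.19). Lss, which closes squalene epoxide to lanosterol, had 67 and 208 UMIs (5.73 and 11.8 CPM; -1.35, -1.77 to -0.95). The third enzyme of C-4 demethylation, Nsdhl, was within 1.5-fold at -0.55, so the 3 enzymes of that step differed unequally.

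Other members acting after squalene were Sqle, the squalene epoxidase, at -0.94, Cyp51, the lanosterol demethylase, at -1.02, Tm7sf2, a sterol reductase, at -1.13, and Sc5d, a sterol desaturase, at -0.82. Ebp and Dhcr7 were within 1.5-fold at -0.43 and -0.51. Lbr, which catalyses the same reduction as Tm7sf2, was the 1 enzyme above the median gene. It had 677 knockout and 589 wild-type UMIs, or 57.9 and 33.4 CPM (0.48, 0.32 to 0.65), and 1.35 on plain CPM. Exons of Fdps, Tm7sf2 and Lbr overlap another annotated gene on the same strand, and those of Ggps1, Fdft1, Cyp51 and Npc1 a coding gene on the opposite strand. Exons of Hmgcs1, Idi1, Lss and Scap overlap a noncoding or unclassified gene on the opposite strand. How the counting treated shared exons, and whether it used strand, is not known here, so the values of these genes are uncertain.

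**Figure D2:**
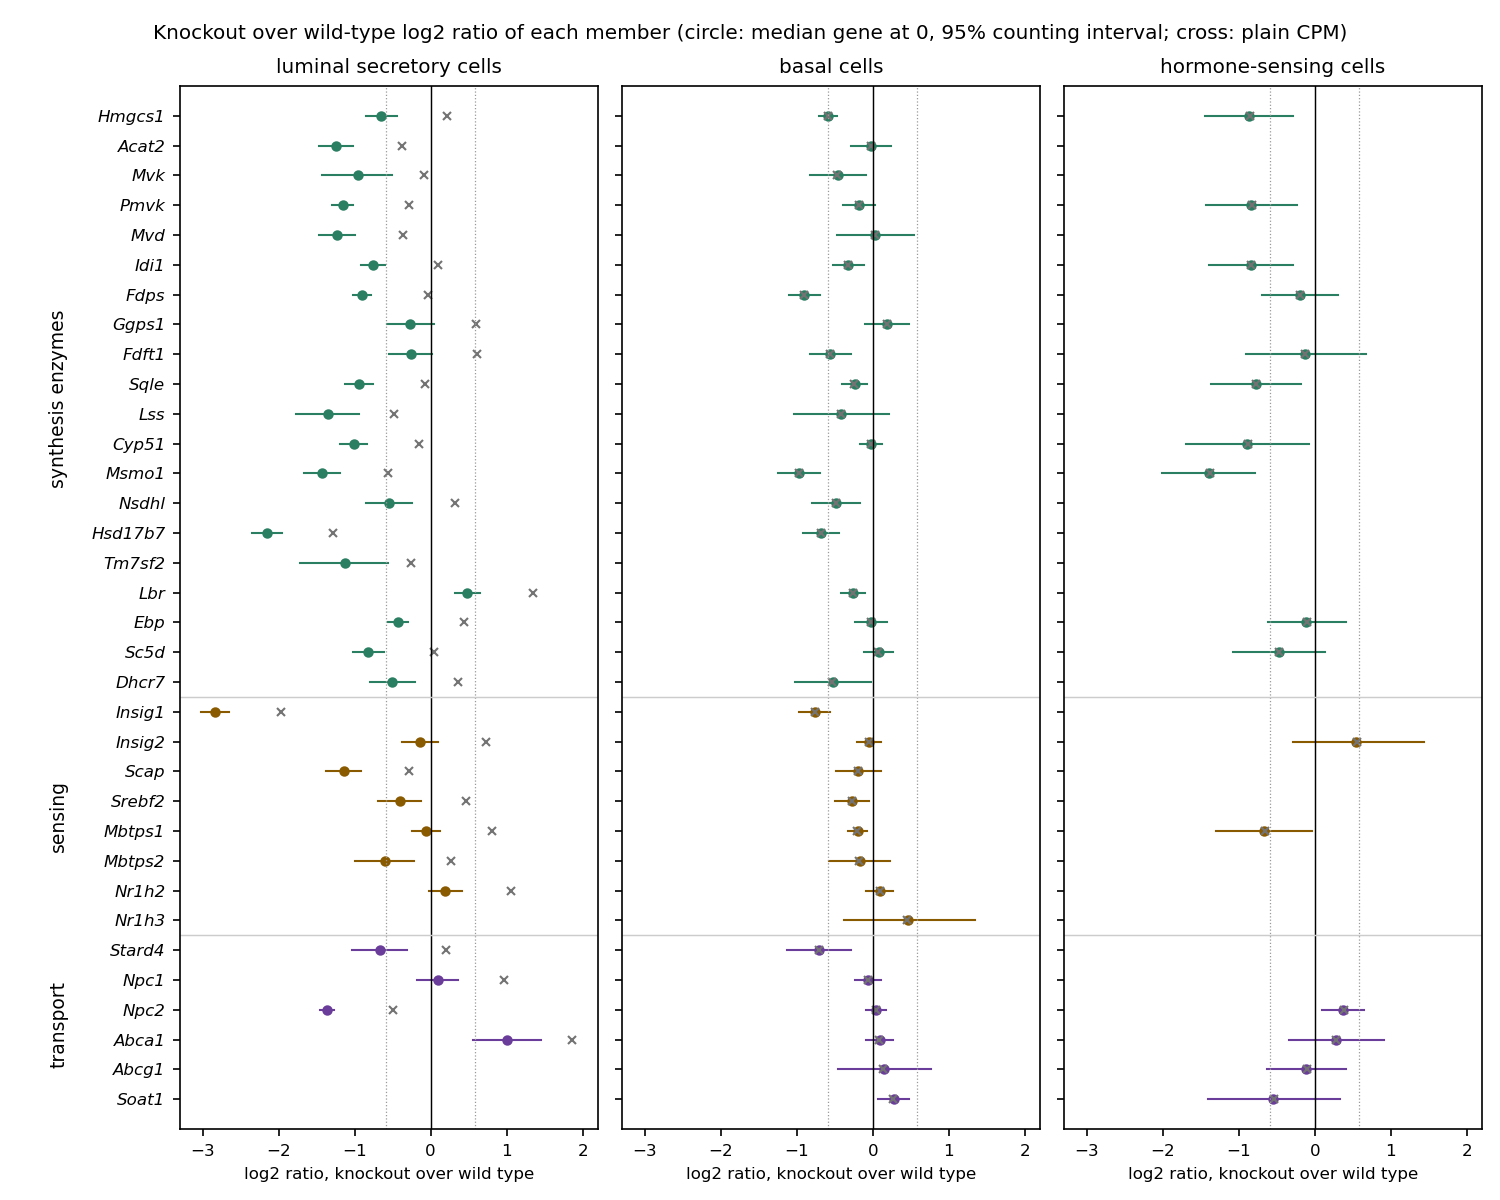
Knockout over wild-type log2 ratio of each member with at least 50 UMIs, in luminal secretory, basal and hormone-sensing cells. Circles set the median gene at 0 and carry 95% counting intervals, crosses are plain CPM, and dotted lines mark 1.5-fold; in luminal cells Insig1 at -2.84 and Hsd17b7 at -2.16 lie farthest to the left and Abca1 at 1.00 farthest to the right.

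Among the sensing genes, the feedback gene Insig1 had the largest difference of all 34 members. Insig1 (chr5:28071363-28078662 on GRCm38, plus strand), which retains SCAP in the endoplasmic reticulum and is itself a target of SREBP2, had 265 knockout and 2305 wild-type UMIs in luminal cells. These were 22.7 and 131 CPM, a log2 ratio of -2.84 (-3.03 to -2.65), and -1.97 on plain CPM. Its relative Insig2 had 259 and 348 UMIs (22.1 and 19.8 CPM; -0.14, -0.38 to 0.09), so the 2 INSIG genes differed from each other in this comparison. Scap, the escort protein, had 214 and 577 UMIs and stood at -1.15 (-1.38 to -0.92). Srebf2, which encodes SREBP2, had 170 and 274 UMIs (14.5 and 15.6 CPM; -0.40, -0.69 to -0.12) and changed sign to 0.46 on plain CPM.

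The proteases that release SREBP2 were split, with Mbtps1 at -0.06 and Mbtps2 at -0.60, of which only Mbtps2 was past 1.5-fold. Exons of Mbtps2 overlap those of Yy2 on the same strand. The LXR gene Nr1h2 had 335 and 357 UMIs (28.6 and 20.3 CPM; 0.19, -0.03 to 0.41), and its relative Nr1h3, which overlaps a noncoding gene on the same strand, had 19 and 21, too few for the filter. Of the 7 sensing genes measured, 3 were lower and none higher, with a median of -0.40 (18% and 15.2% of all genes). On plain CPM, 1 was lower and 3 higher (4.44% and 68.1%).

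Transport genes went in both directions in luminal cells. Npc2, which hands lysosomal cholesterol to Npc1, had 1402 knockout and 4393 wild-type UMIs (119.9 and 249 CPM; -1.36, -1.45 to -1.28), while Npc1 had 211 and 241 (18.04 and 13.7 CPM; 0.09, -0.18 to 0.36). Stard4, a soluble sterol carrier, had 97 and 188 UMIs and stood at -0.67. Abca1 had 115 and 70 UMIs, or 9.83 and 3.97 CPM, and was the 1 member called higher, at 1.00 (0.56 to 1.45). Abcg1 (8 and 5 UMIs) and Soat1 (10 and 12) did not pass the filter. Of 11 handling genes measured, 5 were lower and 1 higher (18% and 15.2% of all genes), with a median of -0.40. On plain CPM, 1 was lower and 5 higher (4.44% and 68.1%), and the median of 0.46 lay below the 0.87 of the median gene.

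Of the 36 further genes of sterol and isoprenoid biology, which include oxysterol carriers, ubiquitin ligases of sterol sensing and prenyltransferases, 31 were measured in luminal cells. Their median was -0.18, with 9 lower and none higher (18% and 15.2% of all genes). On plain CPM it was 0.69 beside 0.87 for the median gene, with 2 lower and 18 higher (4.44% and 68.1%). The lowest were Ch25h, which makes 25-hydroxycholesterol, with 24 knockout and 129 wild-type UMIs (-2.14), and Rnf145, a sterol-regulated ubiquitin ligase, with 374 and 1303 (-1.52). Both median values lay above those of the synthesis enzymes on the same scale.

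Luminal cells of the 2 libraries differed in the share of their UMIs from milk protein genes, so the members were also read in cells of like milk protein share. In wild type, the summed synthesis level was 337.5 CPM in the 92 cells with under 5% of their UMIs from milk protein genes, 424 in 181 cells at 5 to 15%, 697 in 819 cells at 15 to 35%, and 890.5 in 1547 cells above 35%. In the knockout it was 482 in 394 cells, 561 in 316 and 593 in 129, and 932 in the 23 cells above 35%, which were too few to compare. On this scale the wild-type level was lowest in cells with the lowest milk protein share and highest in those with the highest. On plain CPM of all UMIs it was 327, 381, 501 and 486 in wild type and 468, 509.8 and 462 in the first 3 knockout bins. There the wild-type level was highest at 15 to 35%, and the knockout level had no steady order over the bins.

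Ratios in these bins compare CPM directly. Within wild type, 15 of 20 enzymes were higher above 35% than under 5% and none was lower, where 23.9% and 34.7% of all genes were higher and lower. The median enzyme stood at 1.34 and the median gene at -0.20. On plain CPM, 9 were higher and 2 lower (8.91% and 66.8% of all genes), with a median of 0.51. Between 15 to 35% and under 5%, 13 of 18 enzymes measured in wild type were higher and none lower (25.5% and 21.2% of all genes), with a median of 1.15 beside 0.01 for all genes. In the knockout 6 of 17 were higher and 2 lower (9.81% and 22.1%), with a median of 0.19 beside -0.16. On plain CPM these counts were 9 and 0 in wild type (14% and 41.4% of all genes) and 2 and 3 in the knockout (4.43% and 42.4%). The difference between these 2 gradients was not tested.

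At matched milk share the sign of the synthesis ratio depended on the bin. Under 5%, 7 of 16 measured enzymes were higher in the knockout and none lower (26% and 12.4% of all genes), with a median of 0.46 beside 0.17 for all genes. Wild-type counts of those 7 ran from 2 (Nsdhl) to 14 (Fdps) UMIs. Among them only Lbr had knockout and wild-type levels with intervals that did not overlap, so the single calls were limited by counts. Summed over all synthesis enzymes, wild type had 127 UMIs in this bin. Its summed level had an interval of 281 to 402 CPM, beside 461 to 503 in the knockout. Knockout cells gave 4152523 UMIs outside milk there and wild-type cells 376296, so knockout counts largely decided which enzymes passed 50 UMIs. Left out were Mvk (4.09 knockout and 7.97 wild-type CPM), Mvd (9.63 and 10.6), Lss (3.37 and 5.31) and Tm7sf2 (2.89 and 2.66). At 5 to 15%, 5 of 17 were higher and none lower (16.2% and 10.8%), with a median of 0.43 beside 0.08. There too most UMIs outside milk were from the knockout (5401833 and 898564). Left out were Mvk (5.00 and 8.90 CPM), Lss (6.48 and 4.45) and Tm7sf2 (2.78 and 3.34). At 15 to 35%, none of 19 was higher and 3 were lower (8.74% and 10%), with a median of -0.22 beside 0.02. With the median gene of each bin set at 0, the medians were 0.30, 0.35 and -0.23. Then 4 were higher and 1 lower under 5% (18.6% and 18% of all genes), 4 and 1 at 5 to 15% (13.1% and 13.3%), and 0 and 4 at 15 to 35% (8.1% and 10.5%). The 3 lower enzymes were Hsd17b7 at -1.23 (-1.72 to -0.77), Msmo1 at -1.07 (-1.75 to -0.45) and Cyp51 at -0.67 (-1.15 to -0.23). The lower synthesis level of knockout luminal cells as a whole was therefore not seen in cells below 15% milk protein.

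Depth differed in the same cells: the median was 6972.5 UMIs per cell in knockout and 2771.5 in wild type under 5%, 10815 and 3576 at 5 to 15%, and 13771 and 6791 at 15 to 35%. With cells of at least 2000 UMIs the 3 medians were 0.57, 0.47 and -0.22. Summed cell cycle genes stood at 1147 and 308 CPM under 5% and at 738 and 538 at 15 to 35%, and basal markers at 819 and 1297 and at 762 and 689. The part of these in the ratios was not tested otherwise.

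Insig1 followed milk protein share closely in wild type. Its level there was 7.97 CPM (3 UMIs) under 5%, 35.6 (32) at 5 to 15%, 89.9 (475) at 15 to 35% and 162 (1795) above 35%. In the knockout it was 14.0 CPM (58 UMIs), 23.5 (127) and 32.4 (62) in the first 3 bins and 79.5 (18 UMIs) in the last. The knockout level was above the wild-type level only in the first bin, where the wild-type count was 3. The ratio was -0.60 (-1.17 to 0.01) at 5 to 15% and -1.47 (-1.88 to -1.09) at 15 to 35%, so Insig1 was lower in the knockout at 15 to 35%, while the interval at 5 to 15% reached 0.

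Hsd17b7 stood at 21.3, 36.7, 55.1 and 94.2 CPM over the 4 wild-type bins and at 15.7, 25.0 and 23.5 over the first 3 knockout bins. Abca1 ran the other way in both libraries. It stood at 21.3, 18.9, 4.35 and 1.99 CPM in wild type and at 14.0, 9.44 and 2.61 in the knockout. In every matched bin the knockout level of Abca1 was the lower one, with 51 and 17 UMIs and a ratio of -1.003 (-1.82 to -0.12) at 5 to 15%. Its UMIs were 58 and 8 under 5% and 5 and 23 at 15 to 35%, where the intervals of its levels in the libraries overlapped. The higher Abca1 of knockout luminal cells as a whole thus did not appear within these bins. With bins divided at 10 and 25%, the top bin held 3 and 30 UMIs of Abca1 and the ratio there was 1.002 (-1.35 to 2.69). Lbr stood at 68.4 (284 UMIs), 55.5 (300) and 43.3 CPM (83) in the knockout and at 13.3 (5), 33.4 (30) and 37.3 (197) in wild type. The ratios were 2.36, 0.73 and 0.22, the first resting on 5 wild-type UMIs (4.31 to 31.0 CPM).

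**Figure D3:**
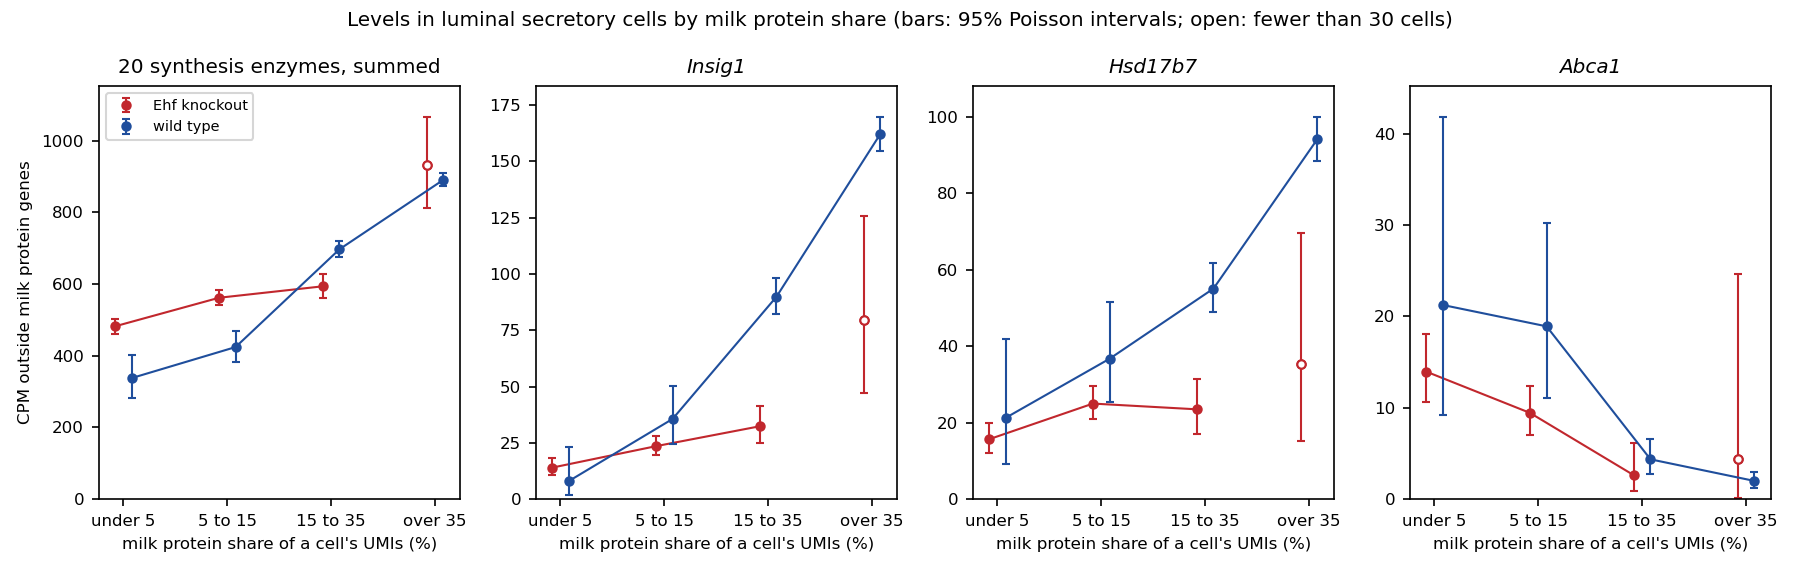
Summed level of the 20 synthesis enzymes and levels of Insig1, Hsd17b7 and Abca1 (CPM outside milk protein genes) in luminal secretory cells by milk protein share of a cell's UMIs, with 95% Poisson intervals; the open point stands for 23 cells. Wild-type synthesis runs from 337.5 to 890.5 CPM and Insig1 from 7.97 to 162, while Abca1 goes from 21.3 to 1.99.

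Ratios also differed from cluster to cluster among luminal cells. In cluster 4, where milk protein took 31.8% of knockout and 42.3% of wild-type UMIs, 12 of 20 enzymes were lower and 1 higher (17.9% and 15% of all genes), with a median of -0.75. In cluster 7, at 9.36% and 37.7% milk protein, 11 of 19 were lower and none higher (15% and 12.5%), with a median of -0.59. In cluster 6, the progenitor-like cluster at 8.71% and 13.8%, 2 of 17 were higher and 1 lower (9.7% and 9.88%), with a median of 0.38. Insig1 was below the median gene in all 3, at -1.31 with 37 and 1767 UMIs in cluster 4, -2.62 with 121 and 450 in cluster 7 and -0.49 with 106 and 44 in cluster 6. Hsd17b7 stood at -1.39, -1.85 and -0.85. Abca1 stood at 1.59 in cluster 7 (50 and 10 UMIs) and at -0.68 in cluster 6. Insig1 and Hsd17b7 were thus below the median gene in every luminal cluster read here, and Abca1 was not of 1 sign. In cluster 13 no enzyme had 50 UMIs over both libraries.

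In basal cells the difference was smaller. Of 20 enzymes 19 passed the filter, Tm7sf2 (23 and 21 UMIs) being the exception, and 4 were lower and none higher, where 6.5% of the 12215 genes measured were lower and 6.11% higher. Their median was -0.32, and the summed level was 339 CPM in the knockout and 432 in wild type. Msmo1 had 202 and 245 UMIs (8.48 and 16.9 CPM; -0.97, -1.25 to -0.70). Fdps had 377 and 436 (15.8 and 30.1 CPM; -0.90, -1.11 to -0.70). The other 2 were Hsd17b7, with 304 and 302 UMIs (12.8 and 20.9 CPM; -0.68, -0.92 to -0.45), and Hmgcs1, with 1215 and 1133 (51.0 and 78.2 CPM; -0.59, -0.71 to -0.47). All 4 were among the 14 enzymes lower in luminal cells, which were most of the 20. The share of all genes lower in both classes is not given here. Within basal clusters, 3 of these 4 turned direction in some: Hmgcs1 stood at 0.085 in cluster 1 and 0.028 in cluster 2, Fdps at 0.82 in cluster 1 and 0.22 in cluster 3, and Hsd17b7 at 0.37 in cluster 2 and 0.13 in cluster 3. The remaining 15 lay between -0.56 and 0.19, Ggps1 being the highest with 274 and 149 UMIs.

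Of the handling genes all 14 were measured in basal cells, 2 were lower and none was higher (6.5% and 6.11% of all genes), with a median of -0.05. Insig1 was again lower, with 400 and 420 UMIs (16.8 and 29.005 CPM; -0.76, -0.97 to -0.56), and so was Stard4 with 96 and 97 (4.03 and 6.70 CPM; -0.71, -1.13 to -0.29). Insig2 was near the median gene with 863 and 551 UMIs (-0.05), and Srebf2 had 396 and 296 (16.6 and 20.4 CPM; -0.27, -0.49 to -0.05). The highest were Nr1h3, with 40 and 18 UMIs (1.68 and 1.24 CPM; 0.46, -0.38 to 1.35), and Soat1, with 581 and 297 (24.4 and 20.5 CPM; 0.27, 0.07 to 0.48). Abcg1 (66 and 37 UMIs; 0.14, -0.46 to 0.76), Nr1h2 (0.09) and Abca1 (704 and 409 UMIs; 0.09, -0.09 to 0.27) were near the median gene. Sterol sensing and efflux genes other than Insig1 and Stard4 thus stayed within 1.5-fold here. Within basal cluster 3 the medians were 0.17 for synthesis and 0.61 for handling genes, with Insig1 at 0.72 (113 and 4 UMIs). Of the further sterol genes, Cyp27a1, the sterol 27-hydroxylase, was higher in basal cells with 58 and 20 UMIs (0.84).

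In hormone-sensing cells, 10 of 20 enzymes had enough UMIs, and all 10 were below the median gene. Of these 6 were lower and none higher, where 8.44% of the 4216 genes measured were lower and 9.61% higher, and the median was -0.81. Msmo1 had 41 knockout and 58 wild-type UMIs (36.9 and 99.1 CPM; -1.39, -2.01 to -0.79). Hmgcs1 had 53 and 52 (47.7 and 88.9 CPM; -0.87, -1.45 to -0.29), and Cyp51 had 28 and 28 (25.2 and 47.9 CPM; -0.89, -1.70 to -0.08). The intervals were wide, but each lay below 0. Idi1 had 59 and 57 UMIs (53.1 and 97.4 CPM; -0.84, -1.39 to -0.29), and Pmvk 51 and 49 (45.9 and 83.8 CPM; -0.84, -1.43 to -0.24). Sqle, with 53 and 49 UMIs (47.7 and 83.8 CPM), stood at -0.78 (-1.37 to -0.19). All 6 were among those lower in luminal cells, but of the 10 only Fdft1 and Ebp were not lower there. Hmgcs1 and Msmo1 were lower in all 3 classes. No share of all genes called in more than 1 class is given here. Sc5d (-0.48), Fdps (-0.20), Fdft1 (-0.13) and Ebp (-0.11) stayed within 1.5-fold.

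The handling genes measured in hormone-sensing cells did not share that direction as a list. Of 6 measured, Mbtps1 was lower (49 and 42 UMIs, 44.1 and 71.8 CPM; -0.67, -1.30 to -0.04) and none was higher (8.44% and 9.61% of all genes), with a median of 0.08. With so few genes the count is near those shares. Npc2 had 367 and 153 UMIs (330.0 and 262 CPM; 0.37, 0.09 to 0.65), and Insig2 had 46 and 17 (41.4 and 29.1 CPM; 0.54, -0.29 to 1.44). Abca1 stood at 0.27 (74 and 33 UMIs; -0.34 to 0.91) and Abcg1 at -0.12 (89 and 52 UMIs; -0.63 to 0.40). The 2 efflux transporters that set hormone-sensing cells apart thus had intervals that included 0 in this comparison. Insig1 (9 and 12 UMIs) and Srebf2 (18 and 15) were too scarce here to compare. Stard4, also below the filter with 11 and 28 UMIs (9.89 and 47.9 CPM), stood at -2.24 (-3.40 to -1.19). Scap, below it too with 25 and 6 UMIs, stood at 1.17 (-0.15 to 2.74). Milk protein genes took 0.171% of knockout and 2.97% of wild-type hormone-sensing UMIs.

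**Figure D4:**
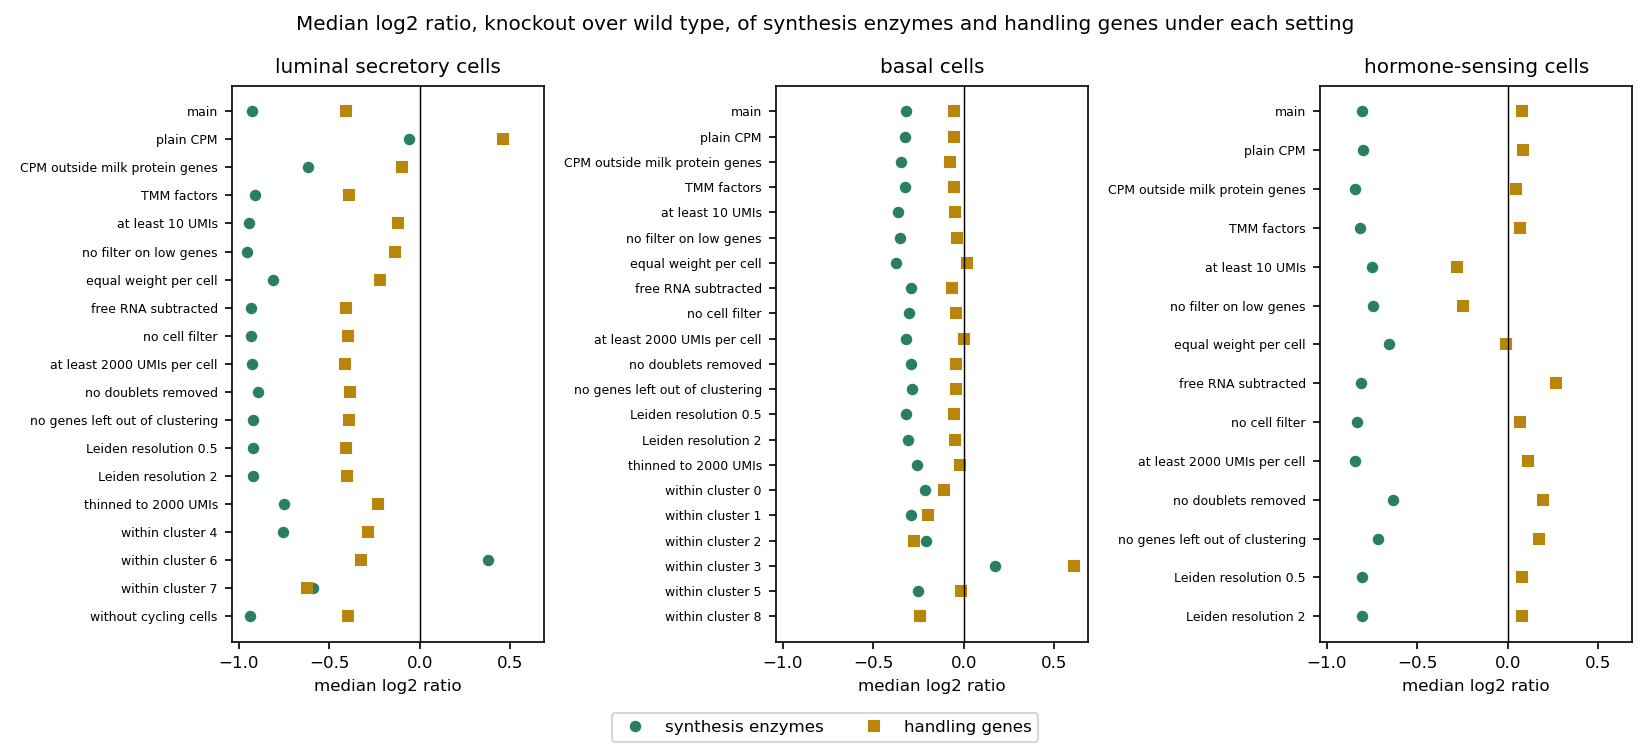
Median knockout over wild-type log2 ratio of the synthesis enzymes (circles) and handling genes (squares) in each cell class under each way of scaling, filtering and clustering. The luminal synthesis median runs from -0.92 as reported to -0.06 on plain CPM and 0.38 within cluster 6, and the hormone-sensing one stays below 0 throughout.

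Cycling cells were common in the knockout luminal class, at 23.1% of the cells deep enough to score (187 of 809) against 5.88% (148 of 2515) in wild type, and 2.60% and 5.65% in basal cells. For cycling over other cells, the median synthesis enzyme was below 0 in luminal cells (-0.02 knockout, -0.33 wild type). It was above 0 in basal cells (0.26 and 0.09). Lbr was higher in cycling cells in all 4 comparisons. In luminal cells it stood at 79.5 against 47.3 CPM in the knockout (0.68, 0.45 to 0.90) and 68.4 against 30.8 in wild type (1.04, 0.70 to 1.37). In basal cells it stood at 115 against 28.7 (1.95, 1.65 to 2.24) and 138 against 36.0 (1.88, 1.55 to 2.21). Of all genes, 5.51% and 13.2% were higher in cycling luminal cells and 16.5% and 15.8% in cycling basal cells, and 4.67%, 11.1%, 15.9% and 15.8% were lower. Stard4 was higher in cycling luminal cells, at 0.69 (0.08 to 1.30) and 1.01 (0.37 to 1.61), and Abca1 lower in cycling basal cells, at -2.17 (-3.49 to -1.12) and -1.57 (-2.79 to -0.57). With the cycling cells left out, Lbr stood at 0.33 (0.13 to 0.53) between luminal cells of the 2 libraries, Insig1 at -2.72 and the median enzyme at -0.93, with 14 of 20 lower and none higher (17.9% and 14.6% of all genes).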

How the data were processed

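Single cells were profiled with the 10x Chromium 3' V3 kit, per the labels' protocols. The deposited matrices hold raw UMI counts, whole numbers that the authors had not normalized. The submitters' processing notes name Seurat 4.0.4 and the GRCm38 (mm10) build, and the aligner was not given in the sources used here. Features without a symbol (1314 of 27179, holding 1.74% of knockout and 1.36% of wild-type UMIs) were left out. A cell needed 500 genes, 1000 UMIs and no more than 20% of its UMIs from mitochondrial genes. Scrublet in scanpy 1.11.5 (Python 3.11.15) removed 37 knockout (0.556%) and 134 wild-type (1.43%) cells as doublets at a score of 0.364, the wild-type automatic threshold, applied to both libraries because the knockout one was 0.623. Leiden clustering (leidenalg 0.10.2, resolution 1, 2000 variable genes, 30 components, 20 neighbours) left out all members and the milk, mitochondrial and ribosomal protein genes. Clusters were named from markers, so class names rest on rebuilt clusters.

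UMIs were summed per library and class. Ratios carry exact conditional and levels exact Poisson intervals at 95%, from scipy 1.17.1, and a count of 0 was set at 3. PCR duplicates are removed by UMIs, and intervals cover counting error only. TMM factors came from edgeR 4.0.16, used for scaling alone. The computation of ratios was tested on simulated data. After thinning to 2000 UMIs, a cell with 3 or more UMIs from 8 cell cycle genes counted as cycling, and milk bins with fewer than 30 cells were not used.

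Full values were given, in each class, for up to 6 members on each side with the largest ratio of 1 sign under 3 scalings, for up to 4 with the largest luminal over basal ratio of 1 sign in both libraries, and for Srebf2, Insig1, Insig2, Abca1 and Abcg1 where counts allowed. The members, lists and rules were chosen with earlier results of these data known. Values per cell of the summed enzymes were only a few UMIs at equal depth and are not reported. Coordinates are from GENCODE on GRCm38.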

Additional observations from a re-analysis of the deposited data

How the results depend on the processing

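With 1 library per genotype no library could be left out, and counting error is the only precision known. No paired analysis was possible because each genotype has 1 library. For a list median, the interval used here runs from the median of its members' lower bounds to the median of their upper bounds. It is about as wide as that of a single gene and is not an interval of the median itself. Of 146 recomputed list medians, 135 stayed within that interval, 10 moved beyond it and 1 that had been past 1.5-fold changed sign. Over all sizes, 9 medians changed sign. Of 698 recomputed values of single genes, 572 stayed within, 103 moved beyond, and 23 past 1.5-fold changed sign, or 39 over all sizes. The scaling mattered most in luminal cells. The luminal synthesis median was -0.058 on plain CPM, -0.59 within cluster 7 and 0.38 within cluster 6, and the luminal handling median was 0.46 on plain CPM, -0.10 outside milk and -0.12 with at least 10 UMIs. Within basal cluster 3 the medians were 0.17 for synthesis and 0.61 for handling. On plain CPM, wild-type luminal over basal medians were 0.48 for synthesis and -1.13 for handling, and the luminal over hormone-sensing handling median was -1.32. Among luminal members past 1.5-fold, signs changed on plain CPM for Hmgcs1 (0.22), Idi1 (0.10), Sc5d (0.048), Mbtps2 (0.26) and Stard4 (0.20). Such signs changed within cluster 6 for Pmvk (0.20), Mvd (0.26), Idi1 (0.44), Fdps (1.05), Cyp51 (0.22), Msmo1 (0.38), Sc5d (0.42) and Abca1 (-0.68), and within cluster 4 for Idi1 (0.13) and Lss (0.068). Among such basal values they changed for Hmgcs1 in clusters 1 (0.085) and 2 (0.028), Fdps in clusters 1 (0.82) and 3 (0.22), Hsd17b7 in clusters 2 (0.37) and 3 (0.13), and Insig1 in clusters 3 (0.72) and 5 (0.034). Beyond the scaling itself and the smaller sets of cells, the cause was not tested. Basal clusters, cells without cycling cells and cells of at least 2000 UMIs within milk bins, and the median gene at 0 in milk bins, were alternatives added after seeing the data.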

Other observations

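Of the further sterol genes, Rnf145 was lower in hormone-sensing cells at a log2 ratio of -0.85, as it was in luminal cells. Other further genes lower in luminal cells included Osbpl2, an oxysterol-binding protein (-1.06), Pdss1, which makes the ubiquinone side chain (-0.78), and Nus1 (-0.75) and Dhdds (-0.59), the paired subunits that make the dolichol chain. On plain CPM, Pdss1 stood at 0.085, Nus1 at 0.12 and Dhdds at 0.28, so these 3 changed sign, while Osbpl2 did not.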
